A study of Mus musculus with 4 samples.

Results

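The EGF receptor (Egfr), 6 genes for its ligands (Areg, Ereg, Hbegf, Tgfa, Btc and Epgn) and the gene for its intracellular inhibitor (Errfi1) were followed through single-cell RNA libraries of the mouse keratinocyte line MK. The 8 genes were chosen by symbol, with earlier results of these data known, and all 8 were found among the 32285 genes of the count tables. The libraries compared are the cells labelled Diff_MK and the cells labelled MK, with 1 RNA library and 1 library of lineage tags for each. What Diff means is not explained in the labels. Both groups are the same line and carry the label Dox, the usual short form of doxycycline, and both were grown in E low medium with serum, so no group without Dox is compared. Cells marked with a heritable tag were detached with trypsin and sorted for GFP before droplet capture, and detachment is a step that both libraries share.

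EGFR is a cell-surface tyrosine kinase that starts the Ras and MAP kinase cascade when a ligand binds. Its ligands are made as membrane-anchored precursors, and cutting by a metalloprotease releases them to act on nearby cells or on the cell that made them, while some can also signal to an adjacent cell uncut. Keratinocytes make several of them, and this autocrine loop is known for driving proliferation, migration and wound closure in the epidermis. MIG6, the product of Errfi1, binds the active kinase domain and shuts it off, and its own gene is induced by the receptor.

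Of the ligand genes, 4 lie side by side. On GRCm38 in the GENCODE annotation, Epgn (chromosome 5, 91027464 to 91035215, plus strand), Ereg (91074622 to 91093646, plus strand), Areg (91139599 to 91148432, plus strand) and Btc (91357261 to 91402994, minus strand) fill a span of 375531 bases that holds these 4 protein-coding genes and no other. Egfr lies on chromosome 11 (16752203 to 16918158, plus strand), Tgfa on chromosome 6 (86195223 to 86275719, plus strand) and Errfi1 on chromosome 4 (150853919 to 150868892, plus strand). RefSeq promoter windows were matched for 6 of the 8 genes, and a pair of them shared the same combination of motifs. These are shown because their genes stood at opposite ends of their own ranges in a cluster of Diff_MK cells described further on, where Areg was lowest and Errfi1 highest. Each sequence is the 150 bases before a RefSeq start on GRCm38.p6, plus strand, chr5:91139449-91139598 for Areg and chr4:150854920-150855069 for the second listed start of Errfi1. Capitals mark the cyclic AMP response element TGACGTCA and the TATA box TATAAA.
Areg: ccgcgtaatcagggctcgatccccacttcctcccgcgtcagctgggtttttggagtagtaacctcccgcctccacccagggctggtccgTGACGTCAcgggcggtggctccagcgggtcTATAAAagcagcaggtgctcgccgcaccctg
Errfi1: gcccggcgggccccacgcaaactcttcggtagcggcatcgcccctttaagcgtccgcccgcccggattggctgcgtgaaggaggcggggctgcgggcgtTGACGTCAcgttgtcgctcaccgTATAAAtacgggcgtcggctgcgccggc
In Areg the response element ran between bases 61 and 54 before the start and the TATA box between bases 31 and 26. In Errfi1 they ran between bases 51 and 44 and between bases 28 and 23. Promoter windows reach 250 bases before to 50 bases after a start. Of each window, those of the members included, only the 150 bases before the start were searched. Over all 32851 windows, 1.36% held TGACGTCA there on either strand, 7.57% held TATAAA, and 22 windows (0.0670%) held both. Epgn held a TATAAA and no TGACGTCA, and neither was in the windows of Btc, Tgfa and Egfr, nor in that of the first listed start of Errfi1. The AP-1 letters TGANTCA, which match neither of the other motifs and were also sought on both strands, present in 4.24% of windows, were in none of the 6 members' windows. A match of letters describes the window and was not tested as a binding site, and no link between motifs and levels was tested.

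After filtering, 6912 of 7569 Diff_MK cell barcodes remained with 103885150 UMIs in all and a median of 14223.5 per cell, and 7175 of 7780 MK cell barcodes with 115181759 UMIs and a median of 15599. The libraries shared 9 cell barcodes among the kept cells. The keratinocyte label was met by Krt14, a basal keratin, at 12790 and 6295 CPM (UMI counts scaled to a common library total) and Krt5, its partner, at 3140 and 1152 CPM in Diff_MK and MK. The summed markers of melanocytes, fibroblasts and endothelial cells came to at most 2.15 CPM per list, and those of immune cells to 5.26 and 6.42 CPM, nearly all of it Cd68. Each group is 1 library, so no test between the groups was possible. Values below are CPM of summed UMIs with exact 95% Poisson intervals, and ratios are Diff_MK over MK with exact conditional binomial intervals, all covering counting error only. UMIs were counted at transcript 3′ ends, so levels of different genes are per transcript end and are not divided by length, and capture may differ between genes. Over genes that reached 5 CPM in each of the libraries the median log2 ratio was -0.15, so a gene with a ratio of 1 lay above the typical gene.

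Over whole libraries Egfr itself stood at almost the same level, with 18.5 CPM (17.7 to 19.4) in Diff_MK and 19.2 CPM (18.4 to 20.004) in MK. Its ratio was 0.965 with an interval of 0.907 to 1.03, and scaling by the median gene in place of the library total turned it to 1.07. The members that differed by more than this lay among the ligands and the inhibitor.

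Hbegf, the gene for the heparin-binding ligand that keratinocytes release at wound edges, was the highest of the ligand genes in both libraries and the one that stood furthest apart. The gene lies on chromosome 18 (36504927 to 36515805, minus strand, GRCm38). It had 91.1 CPM (89.2 to 92.9) in Diff_MK and 57.6 CPM (56.2 to 59.0) in MK. Its ratio was 1.58 (1.53 to 1.63). Tgfa, encoding transforming growth factor alpha, had 38.4 CPM (37.2 to 39.6) in Diff_MK and 28.2 CPM (27.2 to 29.2) in MK, a ratio of 1.36 (1.30 to 1.43). Epgn, encoding epigen, a ligand of low affinity, had 16.4 CPM (15.7 to 17.2) in Diff_MK and 12.9 CPM (12.2 to 13.6) in MK, a ratio of 1.27 (1.19 to 1.37). These were the ligand genes whose counting intervals lay higher in the Diff_MK library.

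Areg, encoding amphiregulin, the main autocrine ligand of cultured human keratinocytes, had 50.8 CPM (49.4 to 52.2) in Diff_MK and 51.4 CPM (50.1 to 52.7) in MK. Its ratio of 0.987 (0.951 to 1.02) became 1.098 under median scaling. Ereg, encoding epiregulin, which signals through both EGFR and ERBB4, went the other way, with 34.4 CPM (33.3 to 35.5) in Diff_MK and 40.2 CPM (39.1 to 41.4) in MK, a ratio of 0.855 (0.818 to 0.893). Btc, encoding betacellulin, was close to the floor of these data, with 64 UMIs in Diff_MK and 99 in MK. Scaled to library totals, the neighbours on chromosome 5 therefore differed in direction. Epgn was higher in the Diff_MK library, Ereg lower, and the interval of Areg took in a ratio of 1.

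Errfi1 had the highest ratio of the 8 genes, with 30.3 CPM (29.3 to 31.4) in Diff_MK and 18.8 CPM (18.1 to 19.7) in MK. The ratio was 1.61 (1.52 to 1.70). Hbegf and Errfi1 were the members at least 1.5-fold higher, a mark passed by 4.51% of the 7736 genes that reached 10 CPM in either library (12.1% passed it in either direction), and no member was 1.5-fold lower, as 7.57% of genes were. Btc, below that minimum, had a ratio of 0.717 (0.515 to 0.991). No member was 2-fold higher or lower, as 1.82% and 0.776% of genes were (2.6% in all). Of all these genes 3.66% had a larger ratio than Hbegf and 3.37% a larger ratio than Errfi1.

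**Figure D1:**
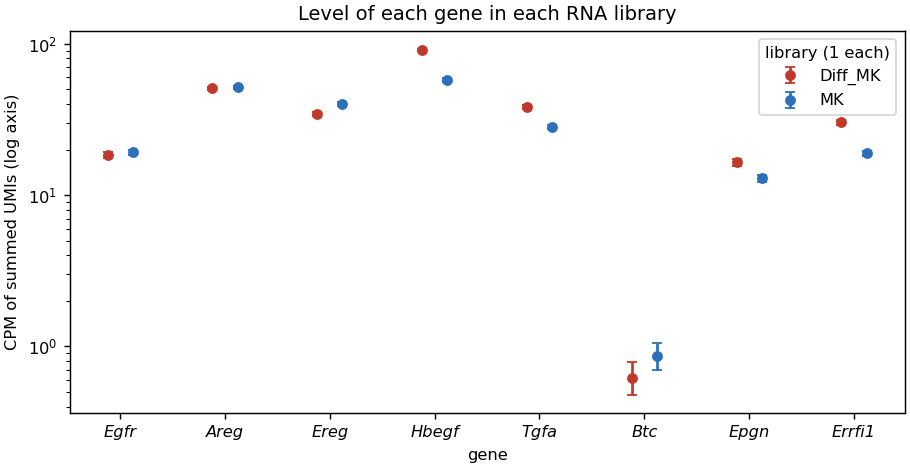
CPM of summed UMIs (log axis) of the 8 genes in the Diff_MK (red) and MK (blue) RNA libraries, with exact 95% Poisson intervals as bars. Hbegf (91.1 and 57.6 CPM), Tgfa (38.4 and 28.2 CPM), Epgn (16.4 and 12.9 CPM) and Errfi1 (30.3 and 18.8 CPM) are higher in Diff_MK, and Egfr (18.5 and 19.2 CPM) and Areg (50.8 and 51.4 CPM) nearly coincide.

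The make-up of the ligand transcripts differed between the libraries. The 6 ligand genes summed to 232 CPM in Diff_MK and 191 CPM in MK. Hbegf accounted for 39.3% (38.7 to 39.9) of these UMIs in Diff_MK and 30.1% (29.5 to 30.7) in MK. The share of Areg was 21.9% in Diff_MK and 26.9% in MK, and that of Ereg was 14.8% and 21.0%. Tgfa held 16.6% and 14.8%, Epgn 7.09% and 6.74%, and Btc 0.266% and 0.450%. Hbegf came first and Areg second in both libraries, with the wider gap in Diff_MK.

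Cells were thinned to 7500 UMIs each to compare shares of cells with a UMI, which kept 6277 Diff_MK and 6838 MK cells and left out 635 and 337 shallower ones. No cell type that lacks these genes was present, so free RNA in the droplets was not measured. Hbegf was detected in 42.7% (41.4 to 43.9) of Diff_MK cells and 31.8% (30.7 to 32.9) of MK cells, against 59.1% and 49.5% without thinning. Errfi1 was seen in 20.3% (19.3 to 21.3) of Diff_MK cells and 13.1% (12.3 to 13.9) of MK cells, and unthinned in 34.1% and 24.4%. Both genes were thus seen in more Diff_MK cells at equal depth. Tgfa was found in 25.3% of Diff_MK and 19.0% of MK cells (40.1% and 34.8% unthinned), and Epgn in 10.2% and 8.60% (17.8% and 16.9% unthinned). Ereg was found in fewer Diff_MK cells, at 18.6% and 22.7% (30.6% and 38.6% unthinned), and Areg likewise, at 25.5% and 28.3% (38.7% and 45.0% unthinned). Egfr was found in 12.6% and 13.2% (22.8% and 25.4% unthinned), and Btc in 0.398% and 0.614% (0.911% and 1.31% unthinned).

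Most cells held transcripts of few ligand genes at this depth. No ligand gene was detected in 26.2% (25.1 to 27.3) of Diff_MK and 30.4% (29.3 to 31.5) of MK cells. UMIs of 2 or more ligand genes were found in 35.5% (34.3 to 36.7) of Diff_MK and 31.1% (30.1 to 32.3) of MK cells. Egfr together with at least 1 ligand gene was seen in 9.32% of Diff_MK and 9.53% of MK cells. Free RNA and doublets can add UMIs and shallow depth can miss them, so these are shares of cells with both UMIs and not of cells that express both.

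Areg, Ereg, Hbegf and Epgn varied between cells more than most genes in both libraries. The variance of UMIs per thinned cell divided by their mean, which sampling alone brings near 1, was 1.74 in Diff_MK and 1.504 in MK for Areg, above 94.6% and 94.7% of genes at 10 CPM or more. It was 1.51 and 1.61 for Ereg, 1.53 and 1.36 for Hbegf, and 1.26 and 1.17 for Epgn. The median gene had 1.06 and 1.05. Egfr, at 1.04 in each library, lay near the median, below these 4 ligand genes. Single cells with 5 or more thinned UMIs held 7.23% of all Areg UMIs in Diff_MK and 4.47% in MK, and the highest cell for Ereg held 9 UMIs in Diff_MK and 24 in MK. Tgfa had 1.15 and 1.05, and Errfi1 1.13 and 1.03, so in MK both were near the median gene. Btc, on few UMIs, had 0.996 and 1.17.

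Areg and Ereg tended to occur in the same cells. UMIs of both were found in 7.18% of thinned Diff_MK cells, 1.51 times the product of their single shares, and in 7.81% of thinned MK cells, 1.21 times the product. The correlation over cells was 0.15 in Diff_MK and 0.11 in MK, over cells that share a library. Among the 21 pairs of members without Btc, 15 lay above the product in Diff_MK and 20 in MK. Thinned to 5000 UMIs the counts were 16 in Diff_MK and 14 in MK, so the order of the libraries depended on depth. Pairs of other genes were not counted, so no background share stands beside these counts. Ereg and Epgn came next in Diff_MK at 1.29 times the product, with Areg and Epgn at 1.24 times. In MK the order was another, with Ereg and Hbegf at 1.21 times and Egfr and Ereg at 1.19 times. Ereg and Epgn followed at 1.15 times and Areg and Epgn at 1.14 times. The MK order was not kept with cells thinned to 5000 UMIs, where Egfr and Ereg came to 0.951 times the product. At that depth Ereg and Hbegf came to 1.25 times in MK. Areg and Ereg came to 1.11 times in MK and 1.61 times in Diff_MK.

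To place the genes among the cells, cells of both libraries were clustered on 2000 variable genes from which the 8 members and the pathway genes named further on had been removed. Of 11 clusters, 9 held at least 50 cells of a library. Cluster 1 was S phase-like and cluster 2 G2/M phase-like, each with 10 of 10 markers of its phase higher than in other cells. The others are called by number and leading genes. The libraries differed strongly in these cells. Cluster 1 held 61 Diff_MK and 1995 MK cells, and cluster 2 held 43 and 1825. Over whole libraries all 10 S phase and all 10 G2/M phase markers were lower in Diff_MK (median log2 ratios -0.77 and -0.41). The part of this difference in the whole-library ratios was not tested. Clusters 4 (Sox6, Krt15, Clu), 6 (Elovl6, Idi1, Acat2) and 8 (Defb4, Krt78) were made up of Diff_MK cells, with 1 MK cell among them in all. Cluster 4, with 1853 cells, had a median of 10170 UMIs, 0.715 of the Diff_MK median.

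The ligand genes were spread unevenly over the Diff_MK clusters. Ereg had 65.2 CPM (59.0 to 72.0) in cluster 7, led by Pth1r and Lor, and 9.26 CPM (7.94 to 10.7) in cluster 4, a 7.05-fold range. Areg had the same clusters at its ends, with 100.7 CPM (92.8 to 109) in cluster 7 and 25.05 CPM (22.9 to 27.4) in cluster 4, a 4.02-fold range. Epgn was also low in cluster 4, at 3.61 CPM (2.81 to 4.57), and lower still in cluster 8, at 2.70 CPM (1.57 to 4.32), against 24.7 CPM (22.1 to 27.6) in cluster 3, led by Il33 and Krt16. Of the 64 Btc UMIs of the library 1 lay in the 1853 cells of cluster 4. All 4 genes of the chromosome 5 span were therefore low in cluster 4, although they differed in the comparison of whole libraries.

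The other members had their own places. Tgfa was highest in cluster 8, at 99.9 CPM (92.2 to 108), against 45.4 CPM (42.5 to 48.6) in cluster 4 and 18.0 CPM (9.61 to 30.9) in the 61 Diff_MK cells of S phase-like cluster 1. Cluster 8 thus combined the highest Tgfa with the lowest Epgn. Errfi1 was highest in cluster 4, at 48.0 CPM (44.9 to 51.2), and between 20.8 and 37.9 CPM in the other 7 Diff_MK clusters. Hbegf ran from 57.3 CPM (54.0 to 60.8) in cluster 6 to 112 CPM (106 to 118) in cluster 3 and kept 99.0 CPM (94.6 to 104) in cluster 4. Egfr ranged over 2.04-fold, with 28.8 CPM (24.7 to 33.4) in cluster 7 and 14.1 CPM (11.3 to 17.4) in cluster 8. Cluster 4 therefore paired the lowest Areg and Ereg with the highest Errfi1 and with Egfr at 16.7 CPM (15.0 to 18.7), near the library value.

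At this clustering the 6 MK clusters spanned narrower ranges for every member above 10 CPM, by little for Errfi1. Highest over lowest cluster was 1.70-fold for Areg, 1.67-fold for Ereg, 1.62-fold for Epgn, 1.55-fold for Tgfa, 1.82-fold for Hbegf and 1.79-fold for Egfr. Errfi1 was nearly equal, with 2.29-fold in MK (32.2 CPM in cluster 5 and 14.1 CPM in cluster 2) against 2.30-fold in Diff_MK. G2/M phase-like cells thus had the lowest Errfi1 of the MK clusters. The order was not kept for Hbegf, whose range at resolution 1.0 in place of 0.5 was 2.40-fold in Diff_MK and 2.90-fold in MK. With the members kept among the clustering genes it was 2.37-fold and 3.07-fold. Egfr also turned there, by little, at 2.23-fold in Diff_MK and 2.25-fold in MK. Areg at resolution 1.0 had 4.72-fold in Diff_MK and 2.80-fold in MK. In MK a single cluster of that resolution was highest for Egfr, Areg, Ereg, Hbegf, Tgfa and Epgn, and for Fos at 329 CPM. It had 101 CPM of Areg and 108 CPM of Hbegf. At resolution 0.5 Areg reached at most 57.4 CPM in an MK cluster, so that clustering did not set this group apart. Errfi1 was highest in another MK cluster. With clusters of 50 or more cells the libraries also differ in the number compared, 8 in Diff_MK and 6 in MK.

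**Figure D2:**
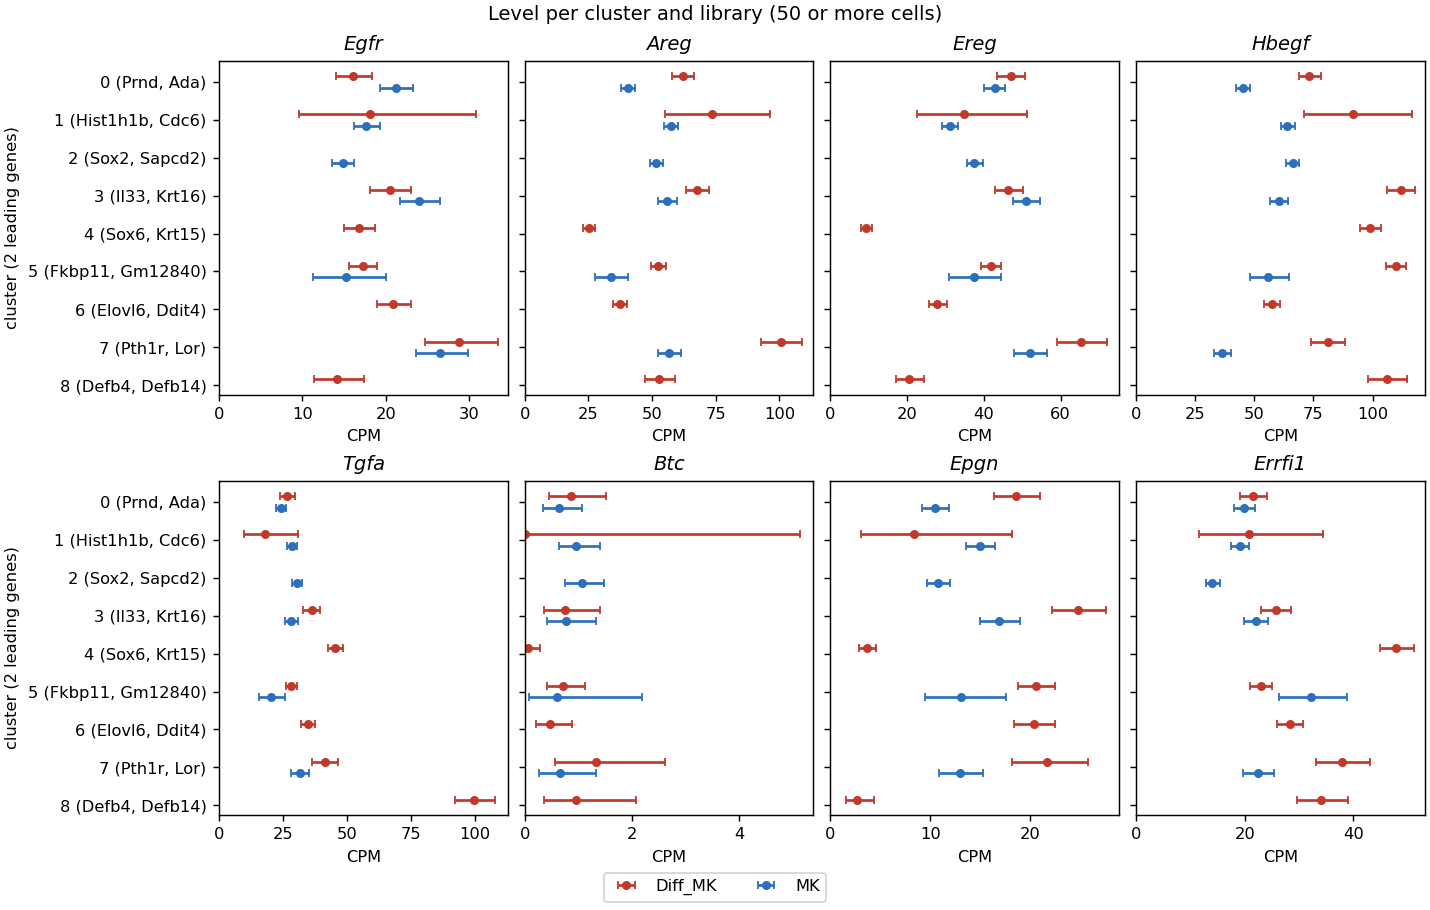
CPM of each gene per cluster (rows, with 2 leading genes) in Diff_MK (red) and MK (blue) cells, for clusters with 50 or more cells of that library, with exact 95% Poisson intervals as bars. Ereg runs from 65.2 CPM in cluster 7 to 9.26 CPM in cluster 4 among Diff_MK cells, while Tgfa peaks in cluster 8 at 99.9 CPM and Errfi1 in cluster 4 at 48.0 CPM.

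Since some clusters belonged to 1 library, the ratio was also taken within the 5 clusters with 50 or more cells of both. This comparison was added after seeing the data. It covers only part of the cells. Clusters 4, 6 and 8, with 1853, 1228 and 467 Diff_MK cells, were left out. So was cluster 2, with 1825 MK and 43 Diff_MK cells. Areg was higher in Diff_MK cells in all 5, by 1.21-fold to 1.78-fold, though its interval took in 1 in cluster 1 (0.956 to 1.69). The clusters weighted equally gave Areg 71.3 CPM in Diff_MK and 48.8 CPM in MK. That is a ratio of 1.46 in place of the 0.987 of the whole libraries. Hbegf was likewise higher in all 5, by 1.43-fold to 2.23-fold, with an equal-weight ratio of 1.79. Ereg came to 1.098, with 4 of 5 clusters above 1. For Errfi1 the equal-weight ratio was 1.11 in place of 1.61, with 25.8 CPM in Diff_MK and 23.1 CPM in MK.

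Errfi1 thus lay nearer to 1 with the shared clusters weighted equally, and cluster 4, which held no MK cell, had its highest level. Within clusters it was higher in Diff_MK in cluster 7, at 37.9 and 22.5 CPM (1.69, 1.40 to 2.03), and lower in cluster 5, led by Fkbp11 and Krt8, at 22.9 and 32.2 CPM (0.713, 0.578 to 0.887). Epgn had an equal-weight ratio of 1.37 and Tgfa of 1.13, each with 4 of 5 clusters above 1 and the S phase-like cluster, with 61 Diff_MK cells and an interval that took in 1, below it. Egfr came to 0.961. Its interval left out 1 in 2 clusters, both lower in Diff_MK, cluster 0 (0.757, 0.642 to 0.889) and cluster 3 (0.852, 0.728 to 0.997), and took in 1 in the other 3, which lay above it. What a cluster holds was set by the genes used for clustering, and cells of 1 cluster in different libraries need not be the same in other genes.

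**Figure D3:**
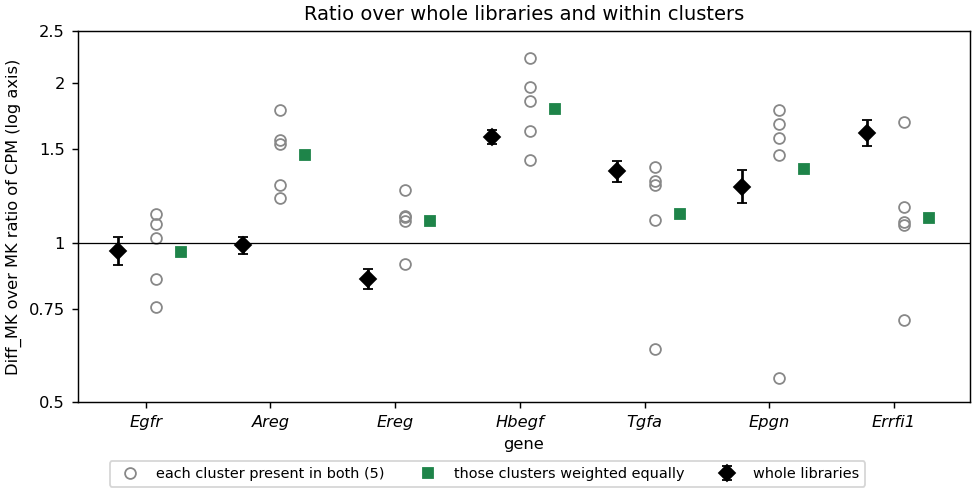
Diff_MK over MK ratio of CPM (log axis) for 7 genes over whole libraries (black diamonds, exact 95% intervals), in each of 5 clusters with 50 or more cells of both libraries (open circles) and with those clusters weighted equally (green squares). Areg moves to 1.46 and Errfi1 to 1.11 when the clusters are weighted equally, against 0.987 and 1.61 over whole libraries. The whole libraries also hold the cells of clusters 2, 4, 6 and 8, which the 5 clusters leave out.

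Lineage tags gave another comparison, since cells with the same tag descend from the same labelled cell. Cells of a clone need not lie in the same clusters in both libraries. In the clone with the most Diff_MK cells, cluster 4 held 28.2% of 539 Diff_MK cells and 0% of 280 MK cells, and S phase-like cluster 1 held 0.186% and 38.9%. Tags of the libraries matched in 88 pairs, 82 of them identical, 78 clones had cells in both RNA libraries, and 19 had 20 or more kept cells in each. Errfi1 was higher in the Diff_MK cells of 18 of these 19 clones, with a median ratio of 1.72. Hbegf was higher in 16 of 19 (median ratio 1.49), with the counting interval above 1 in 11 clones and below 1 in none. Tgfa was higher in 16 (median 1.40) and Epgn in 14 (median 1.42). Their intervals lay above 1 in fewer clones, 5 for Tgfa and 2 for Epgn, and that of Errfi1 in 8. None of these lay below 1 in any clone. The 4 genes that were higher in the Diff_MK library as a whole were therefore higher in most clones as well.

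Areg was higher in 11 of 19 clones, with a median ratio of 1.04 and a range of 0.497 to 1.83, its interval lying above 1 in 1 clone and below 1 in 3. Ereg was higher in 5 and lower in 14 (median 0.742), with the interval below 1 in 6 clones. Egfr was higher in 6 and lower in 13 (median 0.870), with no clone whose interval left out 1. Btc was higher in 9 and lower in 7, on few UMIs. Clones share a library and are not replicates of a condition. Each of the 78 shared clones weighted equally gave 91.3 CPM in Diff_MK and 54.2 CPM in MK for Hbegf and 30.4 and 18.2 CPM for Errfi1. For Egfr it gave 15.97 and 21.2 CPM, a ratio of 0.755 and the lowest of its 12 alternatives.

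**Figure D4:**
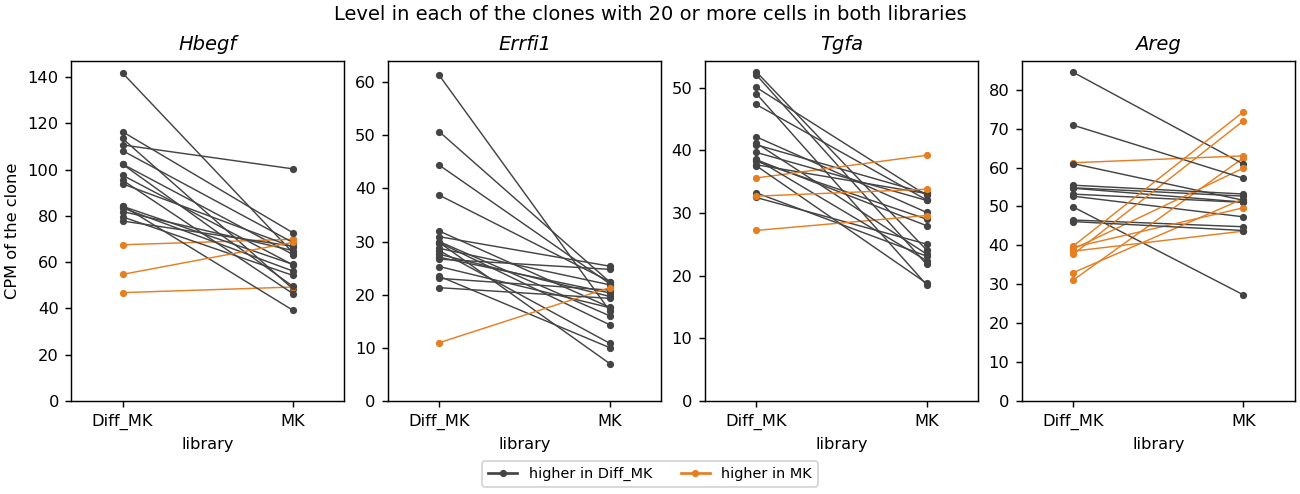
CPM of Hbegf, Errfi1, Tgfa and Areg in each of 19 clones with 20 or more cells in both libraries, Diff_MK on the left and MK on the right, with 1 line per clone (grey where higher in Diff_MK, orange where higher in MK). Errfi1 is higher in Diff_MK in 18 clones, Hbegf and Tgfa in 16 each, and Areg in 11.

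Clones also differed among themselves within the Diff_MK library, where 50 held 20 or more cells. Ereg ranged between 5.25 CPM and 107 CPM over them, with a median of 37.4 CPM. For 20 of 50 the counting interval left out the value of these 50 clones pooled. For Hbegf 21 clones stood apart in this way, with a range of 43.8 to 142 CPM, and for Areg 17, with a range of 24.97 to 165 CPM. Egfr stood apart in 4. Among the 46 MK clones of that size 6 stood apart from their own pool for Areg and for Ereg, 7 for Hbegf and 2 for Egfr. But this count depends on the number of cells per clone, which reached 539 in Diff_MK and 280 in MK. It also depends on the UMIs of the gene, 9461 for Hbegf and 1923 for Egfr in Diff_MK. The counts therefore do not rank the genes by how much clones differ. The range over clones was 10.03 to 37.2 CPM in Diff_MK and 5.53 to 41.0 CPM in MK for Egfr, and 23.7 to 104 CPM in MK for Hbegf.

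Some clones at the extremes lay mostly in 1 cluster. The clone highest in Areg (165 CPM, 31 cells) had 80.6% of its cells in cluster 7, and a clone of 26 cells that was highest in Egfr (37.2 CPM), Epgn (42.1 CPM) and Errfi1 (61.9 CPM) had 80.8% there. Over the 50 clones, the share of cells in cluster 4, between 0% and 56.9% with a median of 17.9%, ran against Ereg (Pearson r = -0.58, Spearman rho = -0.72, and r = -0.61 without the 2 clones farthest from the median share). For Areg r was -0.48 and rho -0.59 (r = -0.60 without those 2 clones), and for Epgn r was -0.38. For Hbegf and Errfi1 r was 0.057 and -0.069. These describe clones of 1 library that share depth and preparation. The clones are made up of the same Diff_MK cells in which Ereg, Areg and Epgn were low in cluster 4. A larger share of cluster 4 cells by itself tends to lower a clone's level of these genes. Their negative values therefore largely restate the cluster levels and are not a separate result about clones.

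Genes whose level over 14 cluster and library combinations was most like that of each member were taken from 5396 genes by the correlation of log2(CPM + 1). For Ereg these were Clcn5 (0.97), Ptgs1 (0.95) and Slpi (0.95), the last encoding a secreted protease inhibitor of epithelia. Areg was closest to Herc4 (0.89), Tmem65 (0.88) and Plk3 (0.86), and Epgn to Clstn1 (0.94), Ndufb6 (0.91) and Ndufs3 (0.90). Hbegf was closest to Prl2c2 (0.90), Klf6 (0.89), an early response transcription factor gene, and Cnn3 (0.86). Tgfa was closest to Tmem45a (0.96), Rnh1 (0.94) and Pnpla8 (0.93), Errfi1 to Pard6g, Eif3h (0.88 each) and Eif3k (0.84), and Egfr to Vps41 (0.92), Tanc1 and Anxa4 (0.91 each). Among the members, Ereg was most like Epgn (0.76) and Areg (0.70), and it ran against Errfi1 (-0.49) and Tgfa (-0.43). The highest of 5396 values over 14 points that share libraries is a description of likeness.

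The other receptors and ligands of the ERBB family were measured alongside. Erbb2, the ligandless partner of EGFR, had 21.8 CPM in Diff_MK and 18.9 CPM in MK (1.15, 1.09 to 1.22), and Erbb3, the kinase-impaired neuregulin receptor, 17.4 and 14.3 CPM (1.22, 1.14 to 1.30). Erbb4 had 0 UMIs in both libraries. Nrg1 and Nrg2, neuregulins that bind ERBB3 and ERBB4, had 89.1 and 81.8 CPM (1.09, 1.06 to 1.12) and 69.6 and 46.1 CPM (1.51, 1.46 to 1.57). Egf, the founding ligand, had 1.02 and 1.01 CPM, Nrg4 had 1 and 13 UMIs, and Nrg3 had none. All 4 family genes above 5 CPM had higher values in Diff_MK, by margins from 1.09-fold to 1.51-fold.

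The machinery around the receptor lay close to the typical gene. Lists are given for members that reached 5 CPM in either library, over which all 9282 genes had a median log2 ratio of -0.16 and 30.8% were higher in Diff_MK. All 5 genes of ligand shedding had lower values, with a median of -0.10. Adam17, the sheddase of most of these ligands, stood at 29.7 and 30.1 CPM (0.985, 0.938 to 1.03) and Adam10, which cuts betacellulin and EGF, at 48.4 and 50.5 CPM, while Rhbdf1 and Rhbdf2, the iRhoms that escort ADAM17, stood at 17.8 and 22.7 CPM (0.783) and 15.4 and 19.7 CPM (0.779). Frmd8, which stabilises that complex, had 20.1 and 21.6 CPM. Of 13 genes that restrain or route the receptor 2 were higher and 11 lower, with a median of -0.12. They include the ubiquitin ligase gene Cblb (16.8 and 13.8 CPM, 1.21), the deubiquitinase gene Usp8 (73.1 and 101 CPM, 0.722), the endosomal sorting gene Hgs (33.1 and 37.1 CPM), and the phosphatase genes Ptpn1 (101 and 112 CPM) and Ptpn2 (40.0 and 52.2 CPM, 0.766). None of these 13 had a ratio above that of Cblb, against 1.61 for Errfi1.

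Adaptors and exchange factors had 1 of 9 higher and a median of -0.23. Grb2, the adaptor that links receptor to SOS, had 84.6 and 109.9 CPM (0.770), Crkl 13.2 and 17.0 CPM (0.777), Sos1 27.3 and 33.3 CPM (0.819) and Sos2 10.2 and 12.4 CPM (0.825). In the Ras and MAP kinase list 5 of 10 were higher, with a median of -0.079. Hras had 302 and 403 CPM (0.749) and Nras 63.8 and 80.1 CPM (0.796), while Mapk3, encoding ERK1, had 50.4 and 38.2 CPM (1.32). The list thus held genes on both sides of a ratio of 1. Under median scaling the medians of the shedding, restraint, Ras and MAP kinase, and feedback lists became positive.

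Transcripts that respond to ERK activity were split. Of 6 feedback genes 3 were higher and 3 lower (median -0.076), led by the MAP kinase phosphatase gene Dusp1, at 91.7 and 37.6 CPM (2.44, 2.35 to 2.53). Dusp6, the ERK-specific phosphatase gene, had 13.6 and 10.7 CPM (1.27, 1.18 to 1.37), Dusp5 26.7 and 31.96 CPM (0.837) and Spred1 16.4 and 19.3 CPM (0.849). Of 13 responsive genes 7 were higher and 6 lower (median 0.11). Fos, encoding an AP-1 subunit, had 368 and 99.7 CPM (3.69, 3.61 to 3.77) and Klf6 246 and 119.7 CPM (2.06, 2.02 to 2.10). Ccnd1, the cyclin D1 gene, had 338 and 663 CPM (0.510, 0.503 to 0.516) and Plaur, the urokinase receptor gene, 20.3 and 41.2 CPM (0.491, 0.466 to 0.517). Named after their values were seen, Egr1 had 204 and 113 CPM and Fosl1 34.3 and 65.4 CPM. Fos, Egr1, Klf6 and Dusp1 were thus higher in Diff_MK, while Ccnd1, Plaur and Fosl1 were lower.

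**Figure D5:**
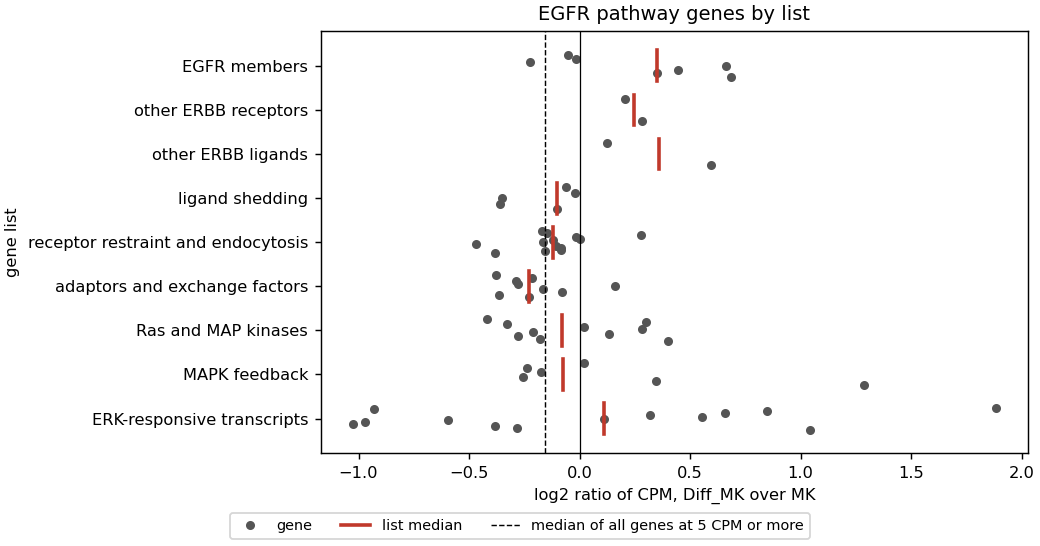
Log2 ratio of CPM, Diff_MK over MK, of each gene that reached 5 CPM in either library (grey points) for the 8 members and 8 pathway lists, with list medians as red lines and the median of all 9282 such genes (-0.16) as a dashed line. Shedding (-0.10), restraint (-0.12), and adaptor (-0.23) genes lie around the dashed line, and the ERK-responsive list spreads between Plaur and Fos.

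Fos is an immediate early gene known to respond to cell detachment, and its level differed between the libraries, so members were also compared within classes of Fos UMIs after thinning, an alternative added after seeing the data. Cells with 3 or more Fos UMIs made up 45.4% of Diff_MK and 9.51% of MK cells. Among cells with no Fos UMI, Hbegf had 79.6 CPM in Diff_MK and 54.2 CPM in MK (1.47, 1.34 to 1.60), and Errfi1 28.6 and 18.4 CPM (1.56, 1.34 to 1.80). Among those with 3 or more, Hbegf had 101 and 74.1 CPM (1.37, 1.23 to 1.54) and Errfi1 35.6 and 17.6 CPM (2.02, 1.61 to 2.55). With 1 or 2 Fos UMIs the ratios were 1.32 (1.22 to 1.44) for Hbegf and 1.45 (1.25 to 1.69) for Errfi1. Both genes were therefore higher in Diff_MK in each class, though Fos counts were equal by design only in the class without Fos UMIs. Hbegf was higher in cells with more Fos in both libraries. The ratio of Ereg depended on Fos, at 1.06 (0.941 to 1.199) without Fos UMIs and 0.518 (0.446 to 0.603) with 3 or more, where it had 27.1 CPM in Diff_MK and 52.3 CPM in MK. Cluster 4, low in Ereg, had 630 CPM of Fos, and Diff_MK clusters ranged between 203 and 701 CPM. The part of Fos or of cell handling in these differences was not tested.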

How the data were processed

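Single-cell RNA libraries (10x 3′ chemistry) and lineage-tag libraries came from GFP-sorted MK cells, per the labels' protocols. Titles gave the groups, of 1 library each. The RNA files are UMI counts as deposited, not normalized. Per the file headers, Cell Ranger 6.1.2 produced them, and the submitters' processing notes name mm10. The sources used here do not name an annotation. The deposited tag counts come without a stated counting tool or unit (reads or UMIs). Members and gene lists were chosen with earlier results of these data known.

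Cells with 1000 or more genes and at most 15% mitochondrial UMIs were kept. UMIs were summed and scaled to CPM, and ratios carry 95% conditional binomial intervals. Shares carry 95% Clopper-Pearson intervals after thinning to 7500 UMIs. The background counts genes that reached 10 CPM in either library and passed 2-fold or 1.5-fold. Clusters came from 30 principal components of log-scaled counts, 15 neighbours and Leiden clustering (leidenalg 0.10.2, resolution 0.5), with scipy 1.17.1 and scikit-learn 1.9.0. Cells were assigned to the clone of their top tag if it had at least 3 counts and no less than 2 times those of the next one, which assigned 4747 Diff_MK and 4560 MK cells. Doublets were not removed; leaving out the 6% of cells with the highest doublet score (415 Diff_MK, 430 MK) was an alternative. Named genes are the members, the other ERBB genes, in each further list the gene of highest mean CPM and up to 4 of largest log2 ratio at 10 CPM or more, the 3 genes most like each member, and leading genes of clusters. Egr1, Fosl1, Adam17, Krt5 and Krt14 are further genes, picked with their values already known. Positions come from GENCODE vM21. The ratio intervals, the fold calls and the thinning were tested on simulated data, and the other steps were not. A gene that the rule for named genes selects is not reported here.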

Additional observations from a re-analysis of the deposited data

Results flagged for a closer look

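The Diff_MK over MK ratio of Errfi1 went in opposite directions in clusters that held cells of both libraries. It was 1.69 in cluster 7, led by Pth1r and Lor, and 0.713 in cluster 5, led by Fkbp11 and Krt8, each with a counting interval that left out 1. The difference between these ratios was not tested, since each library is a single sample, and the MK side of cluster 5 rests on 176 cells.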

How the results depend on the processing

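No paired analysis was possible because each group is 1 library. Across 12 alternatives the ratios of Hbegf (1.32 to 1.79), Tgfa (1.13 to 1.55) and Errfi1 (1.11 to 2.02) stayed above 1. The number of members higher in Diff_MK, 4 of 8, became 7 with shared clusters weighted equally and 8 among cells with no Fos UMI, both added after seeing the data. It was 6 under the planned median scaling, 6 with shared clones weighted equally and 3 among cells with 3 or more Fos UMIs. With shared clusters weighted equally and among cells with no Fos UMI, Ereg turned to 1.098 and 1.06 and Btc to 1.01 and 1.16. Btc turned to 1.18 with shared clones weighted equally, and Epgn to 0.931 among cells with 3 or more Fos UMIs. Leaving out the largest clone, also added afterwards, kept all 8 directions. The 201 genes past 2-fold (141 higher, 60 lower) became 1687 (716 higher, 971 lower) with a minimum of 10 counts and 935 (349 higher, 586 lower) at 1.5-fold, and median scaling left 30 lower. Median scaling raised the pathway lists with a positive median to 7 in place of 3, with shedding at 0.051, restraint at 0.032, Ras and MAP kinases at 0.073 and feedback at 0.076. Shares of Btc and the clone values rest on few UMIs, which limits them.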
